A study of Mus musculus with 8 samples.

Results

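CX45 embryos were compared with 2C embryos gene by gene, to see which of the gains and losses that separate 8C from 2C embryos were also present in CX45 and which were not. The comparison used 4 of the 8 libraries of the series, the 2 of CX45 and the 2 of 2C, and covered 24732 genes, of which 11832 passed the filter on low values. All libraries came from C57BL/6 mouse embryos and were made from total RNA with Smart-seq, a method that amplifies full-length cDNA from very few cells, and sequenced on a BGISEQ500 instrument. The labels name the groups only as 2C, 8C, CX22 and CX45, each with 2 libraries, and give every sample a passage of 1. 2C and 8C are taken to be embryos at the 2-cell and at the 8-cell stage. Nothing in the labels spells out CX22 and CX45, and give no agent, dose, time, embryo age or number of embryos for any group. The title of the series names RNA polymerase I transcription and chromatin architecture in embryos, and which group serves as the control of CX45 is not stated.

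RNA polymerase I transcribes the ribosomal RNA precursor in the nucleolus, together with the factors RRN3 and UBTF, and the precursor is processed and joined to ribosomal proteins by biogenesis factors. In mouse embryos the major wave of genome activation falls in the 2-cell stage, when a transient programme that includes Zscan4 and Zfp352 is transcribed. By the 8-cell stage that programme has been shut down, maternal oocyte transcripts have been cleared, and transcripts for ribosomes, proteasomes and respiration have accumulated.

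The implied depth of the libraries, read from the steps of low FPKM values (fragments per kilobase of transcript, scaled to the mapped fragments), was 11.92 and 12.6 M fragments in 2C, 17.83 and 20.12 M in 8C, and 10.96 and 12.68 M in CX45. Between 9428 and 9777 genes stood at 1 FPKM or more in CX45, against 8903 to 8918 in 2C and 8142 to 8189 in 8C. The 2C libraries differed by little more than sampling noise and were counted as 1 sample, so their values carry no replicate error, and nothing in the labels says that the libraries of a group came from separate collections. P-values therefore measure the spread within the pairs of 8C, CX22 and CX45 libraries, which may be technical. The CX22 libraries, which are part of neither 2C nor CX45, differed most. Their median chi-square was 132.54 times that of sampling noise, against 43.93 in CX45 and 24.78 in 8C. All 12 oocyte and early embryo markers were detected in each of 2C, 8C and CX45, with summed levels of 26800 to 38300 FPKM in CX45. Of the markers of other cells, the 10 of cumulus and granulosa cells summed to 8.54 and 9.55 FPKM in 2C and 0.197 and 1.62 in CX45, the 8 of sperm to 19.6 and 18.7 in 2C and 0 and 4.91 in CX45, and the 6 of fibroblasts to 1.01 and 6.01 in 2C and 3.94 and 0.921 in CX45. Among the granulosa markers, Foxl2 stood at 2.64 and 3.18 FPKM in 2C, Star at 3.39 and 3.46 and Adamts1 at 1.86 and 2.38. In CX45 Foxl2 was listed at 0 and Star and Adamts1 stood below 1 FPKM, while Amh, Fshr and Ptx3 were at 0 in every library. The 8 markers of blood cells summed to 110.5 and 110.9 FPKM in 2C, 12.3 and 32.0 in 8C and 303 and 361 in CX45, nearly all of it from the alpha globin gene Hba-a1, while Hbb-bs was listed at 0 in every library and Ptprc stood below 0.1 FPKM. The macrophage gene Lyz2 stood at 0 and 1.92 FPKM in 2C, 9.61 and 7.45 in CX45 and 0 in 8C, and Cd74 at 4.35 and 5.03 in 2C, 6.01 and 5.28 in CX45 and 1.69 and 3.27 in 8C. Their part in the results was not tested. Each library is a bulk sample, in which fewer cells of a kind and less RNA per cell cannot be told apart.

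Many of the stage-related gains and losses were also called in CX45, and which of them had the larger share depended on the scaling. Against 2C, 1924 genes rose and 1606 fell in CX45, which is 16.3% and 13.6% of the genes tested (29.8% together). The balance turned with scaling: quantile normalization gave 1606 rises and 1936 falls, and upper quartile scaling 1716 and 1757. A call required a limma adjusted p under 0.05 and a difference of at least 1 on the log2(FPKM + 1) scale. In 8C against 2C, 1938 genes rose (16.4%) and 2444 fell (20.7%), 37.0% together. Of the 1938 stage gains 1441 (74.4%) also rose in CX45, and of the 2444 stage losses 1537 (62.9%) also fell. These shares were 62.0% of gains and 76.4% of losses with quantile normalization, and 66.2% and 67.1% with upper quartile scaling. Without CX45 replicate 1 they were 48.6% and 38.0%, and without CX45 replicate 2 49.1% and 47.3%. Both comparisons use the same 2C libraries, so part of this sharing is built in. Wdr83 rose in 8C and fell in CX45, and Gm10658 did the opposite, and no other gene was called in opposite directions. A further 482 genes rose and 68 fell in CX45 without a call in 8C.

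Over the stage gains the median log2 difference from 2C was 2.93 in 8C and 2.62 in CX45, and over the stage losses it was -2.88 in 8C and -2.09 in CX45. These genes were chosen by their 8C values, which favours 8C in both pairs of medians. Over all genes tested the median was -0.03 in 8C and 0.33 in CX45, and quantile normalization moved the latter to 0.12. Against 8C itself, only 78 genes were called in CX45 (0.659%), 54 higher (0.456%) and 24 lower (0.203%), while 2281 had an unadjusted p under 0.05. This comparison with 8C is fragile: limma called 0 genes without any single library of 8C, CX22 or CX45, where between 1232 and 3211 genes had an unadjusted p under 0.05, and 1037 with the 2C libraries as separate samples. Every call against 8C named here carries that limit. Leaving out either 8C library lowered the calls of CX45 against 2C to 1514 (replicate 1) and 1491 (replicate 2), and leaving out either CX45 library lowered them to 1790 and 2070, in fits with fewer residual degrees of freedom. The stage gains also called in CX45 then numbered 468 and 450 without an 8C library and 798 and 807 without a CX45 library, and the losses 625, 604, 821 and 1026. With the 2C libraries as separate samples, 6085 genes were called in CX45 against 2C. With CX22 left out of the fit 4893 were called, against 3530 with it. Leaving out either single CX22 library also raised the number of calls. The rises given below for RNA polymerase I, ribosome biogenesis, proteasome, respiratory chain and p53 pathway genes became more numerous as well.

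**Figure D1:**
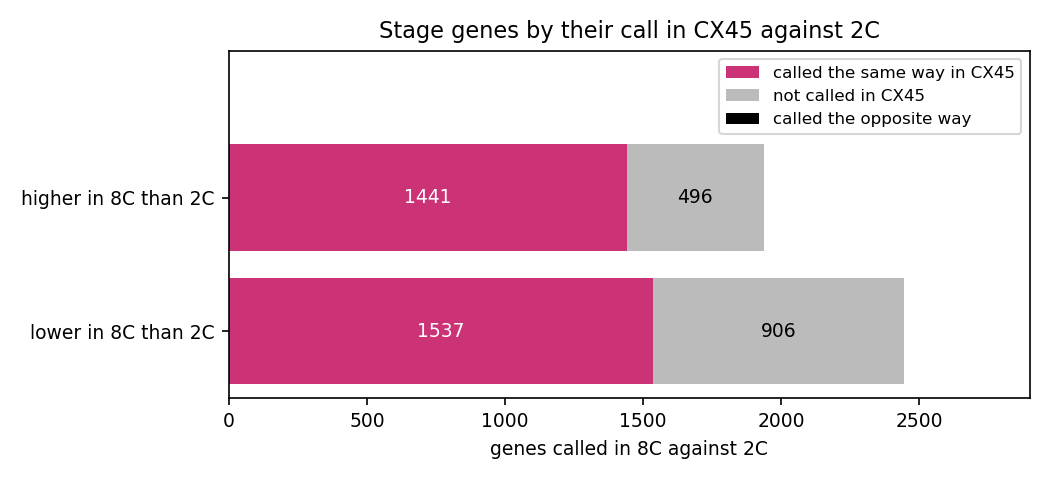
Genes called in 8C against 2C (x axis, number of genes), split by their call in CX45 against 2C: 1441 of 1938 gains and 1537 of 2444 losses were called the same way, and 1 gene of each class was called the opposite way.

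Promoters are shown here to set genes of the ribosome and proteasome gains beside genes of the transient 2-cell programme. Psmd12, Usp17lb and Zscan4b appear for their promoters only, and their levels are not given. The first 4 genes are stage gains called in CX45, chosen as the most significant member with the motif in each of 4 lists: Polr1c, a subunit shared by RNA polymerases I and III, the ribosome biogenesis methyltransferase Emg1, the ribosomal protein gene Rps6 and the proteasome subunit Psmd12. The last 3 are the 2-cell-stage genes with the highest 2C level that hold a TATAAA. Zscan4d and Zscan4b share the bases that follow it, so they are not separate examples. Each line is the 100 bases upstream of a RefSeq start in GRCm38.p6, 5′ to 3′ on the gene's strand. Capitals mark CCGGAAG, an ETS-type core, or its reverse complement in the first 4, and TATAAA in the last 3.
Polr1c, chr17:46248046-46248145, minus strand: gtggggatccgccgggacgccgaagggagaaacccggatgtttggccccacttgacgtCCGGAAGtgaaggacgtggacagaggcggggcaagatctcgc
Emg1, chr6:124712179-124712278, minus strand: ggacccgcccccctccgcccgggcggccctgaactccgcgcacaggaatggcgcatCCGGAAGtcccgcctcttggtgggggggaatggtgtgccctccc
Rps6, chr4:86857368-86857467, minus strand: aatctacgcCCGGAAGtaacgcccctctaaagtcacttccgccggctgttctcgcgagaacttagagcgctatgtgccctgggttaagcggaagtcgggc
Psmd12, chr11:107479428-107479527, plus strand: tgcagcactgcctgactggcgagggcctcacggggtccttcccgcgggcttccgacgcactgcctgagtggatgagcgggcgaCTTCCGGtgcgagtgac
Zscan4d, chr7:11166149-11166248, minus strand: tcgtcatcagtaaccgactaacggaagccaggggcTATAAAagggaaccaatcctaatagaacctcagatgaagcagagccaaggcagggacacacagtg
Usp17lb, chr7:104842584-104842683, minus strand: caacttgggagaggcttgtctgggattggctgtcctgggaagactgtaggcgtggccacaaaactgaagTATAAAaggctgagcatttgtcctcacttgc
Zscan4b, chr7:10905051-10905150, minus strand: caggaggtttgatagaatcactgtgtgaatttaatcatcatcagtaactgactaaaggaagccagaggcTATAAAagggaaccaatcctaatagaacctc

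In all 4 motifs were searched on both strands of 300-base RefSeq promoters (250 before to 50 after the start), which were found for 9528 of the 11832 genes tested, and CCGGAAG and TATAAA were picked for display after the shares were seen. Neither of those contains the other. Of the remaining motifs, GGCGGG lay in 63.4% of genes tested, 64.4% of the stage gains called in CX45 and 58.1% of the losses called in CX45, and a longer homeobox-type motif in 2 genes. CCGGAAG lay in a promoter of 20% of those genes. It lay in 29.1% of stage gains called in CX45 and in 12.9% of stage losses called in CX45. Among lists it was found in 53.3% of RNA polymerase I genes, 42.7% of ribosome biogenesis genes, 48.3% of proteasome genes and 6.82% of maternal oocyte genes. TATAAA lay in 10.1% of all genes tested, 9.14% of the stage gains called in CX45 and 12.3% of the losses. Promoters were found for 22 of 33 2-cell-stage genes and 57 of 78 ribosomal protein genes, too few for a share. Across all 32851 promoters of the table, CCGGAAG lay in 8.86% and TATAAA in 13.6%. In the whole table GGCGGG lay in 35.3% and the homeobox-type motif in 0.0335% of promoters. A match is a run of letters and no evidence of binding.

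About as many genes of the RNA polymerase I machinery were called higher than 2C in CX45 as in 8C. Of 15 genes of that list, 8 rose in CX45 (53.3%, beside 16.3% of all genes) and none fell, with a median log2 difference of 2.46. In 8C 7 rose (46.7%, beside 16.4%) with a median of 2.24, all 7 of them also in CX45. Rrn3, the initiation factor that makes the polymerase competent, stood at 45.3 and 43.9 FPKM in 2C, 278 and 264 in CX45 and 354 and 329.9 in 8C. That is a log2 difference from 2C of 2.58 ± 0.31 (SE) in CX45, adjusted p = 0.00879. Neither CX45 library overlapped 2C, and both lay below 8C. Ubtf, which binds ribosomal DNA, was nearly undetected in 2C at 0.152 and 0.231 FPKM and reached 15.6 and 16.5 in CX45 and 24.5 and 33.3 in 8C, a log2 difference in CX45 of 3.84 ± 0.75, adjusted p = 0.0243. Polr1b, the second-largest subunit, stood at 2.73 and 2.51 FPKM in 2C, 11.9 and 16.9 in CX45 and 18.2 and 14.2 in 8C, so CX45 and 8C overlapped and neither touched 2C. Its rise was 2.07 ± 0.53, adjusted p = 0.0442.

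The subunit Znrd1 rose by 4.58 ± 0.46, adjusted p = 0.00639, from 15.6 and 19.4 FPKM in 2C to 413 and 475 in CX45, beside 476 and 467 in 8C. Polr1c rose by 2.55 ± 0.33, adjusted p = 0.00985, from 21.1 in both 2C libraries to 136 and 120.3 in CX45, beside 169 and 256 in 8C. Taf1a, a subunit of the promoter selectivity factor, was called in CX45 and missed the threshold in 8C: it stood at 13.2 FPKM in both 2C libraries, 71.2 and 54.6 in CX45 and 30.9 and 34.1 in 8C. The largest subunit gene, Polr1a, was not called in either comparison, at 0.395 and 0.382 FPKM in 2C, 5.18 and 6.41 in CX45 and 5.57 and 7.84 in 8C, adjusted p = 0.0822 in CX45. The terminator Ttf1, chosen after its values were seen, stood at 4.91 and 5.08 FPKM in 2C and 6.79 and 4.7 in CX45. None of the 15 was called in CX45 against 8C. The 8 rises became fewer without any single 8C or CX45 library and more numerous without either CX22 library.

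The same number of ribosome biogenesis factors rose in CX45 and in 8C. Of 117 tested, 68 rose in CX45 and none fell (median log2 difference 2.29, with 49 not called). In 8C 68 rose and 1 fell (median 2.31), with 65 of the 68 stage gains called in CX45. The rises were 58.1% of the list in either comparison, beside 16.3% of all genes in CX45 and 16.4% in 8C. Nop16, a nucleolar factor of the large subunit, stood at 18.5 and 19.0 FPKM in 2C, 499.8 and 511 in CX45 and 482 and 646 in 8C, a rise of 4.68 ± 0.27, adjusted p = 0.00313. Mrto4, an assembly factor of the ribosomal stalk, stood at 19.6 and 20.9 in 2C, 283 and 248 in CX45 and 269 and 330.1 in 8C. Emg1 stood at 65.4 and 67.1 in 2C, 529.6 and 425 in CX45 and 537 and 522 in 8C. Levels of these 3 genes in CX45 were within or next to the 8C range and far from 2C. Fbl, the ribosomal RNA methyltransferase directed by nucleolar guide RNAs, stood at 3.59 and 3.9 FPKM in 2C, 50.6 and 46.0 in CX45 and 69.2 and 73.1 in 8C. Ncl, nucleolin, stood at 14.8 and 12.7 in 2C, 74.5 and 101 in CX45 and 127 and 118 in 8C. Both rose in CX45, by 3.38 ± 0.37 and 2.57 ± 0.50. The 68 calls fell to 34 without either 8C library, 35 without CX45 replicate 1 and 34 without CX45 replicate 2.

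Nearly all cytosolic ribosomal protein genes were called higher in CX45 than in 2C. Of 78 genes, 72 rose in CX45 (92.3%, beside 16.3% of all genes) and none fell, with a median log2 difference of 3.72. In 8C 74 rose (94.9%, beside 16.4%) with a median of 4.48. All 72 genes that rose in CX45 were stage gains. Rps15 stood at 32.4 and 33.5 FPKM in 2C, 1767 and 2273 in CX45 and 2847 and 2927 in 8C, a rise of 5.88 ± 0.26, adjusted p = 0.00313. Rps6 stood at 21.2 and 23.6 in 2C, 1151 and 999 in CX45 and 1894 and 1834 in 8C. Rpl5, which joins the 5S RNA particle, stood at 9.59 and 10.1 in 2C, 330.0 and 333 in CX45 and 882 and 1021 in 8C. In all 3 genes CX45 lay above 2C and below 8C without overlap. The median log2 difference of CX45 from 8C over the 78 genes was -0.70, beside 0.31 over all genes tested, and none was called against 8C. Rpl30 lay above 8C, at 1012 and 928 FPKM in CX45 against 895 and 780.3, and was chosen after its values were seen. The difference from 8C was -1.51 ± 0.18 for Rpl5, adjusted p = 0.0557. Rps27l, a p53-responsive relative of Rps27, went the other way: it fell by 1.23 ± 0.31, adjusted p = 0.0442, from 9365 and 9013 FPKM in 2C to 4340.0 and 3521 in CX45 and 2462 and 2035 in 8C, while Rps27 rose from 164 and 149 to 3219 and 2347 in CX45.

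**Figure D2:**
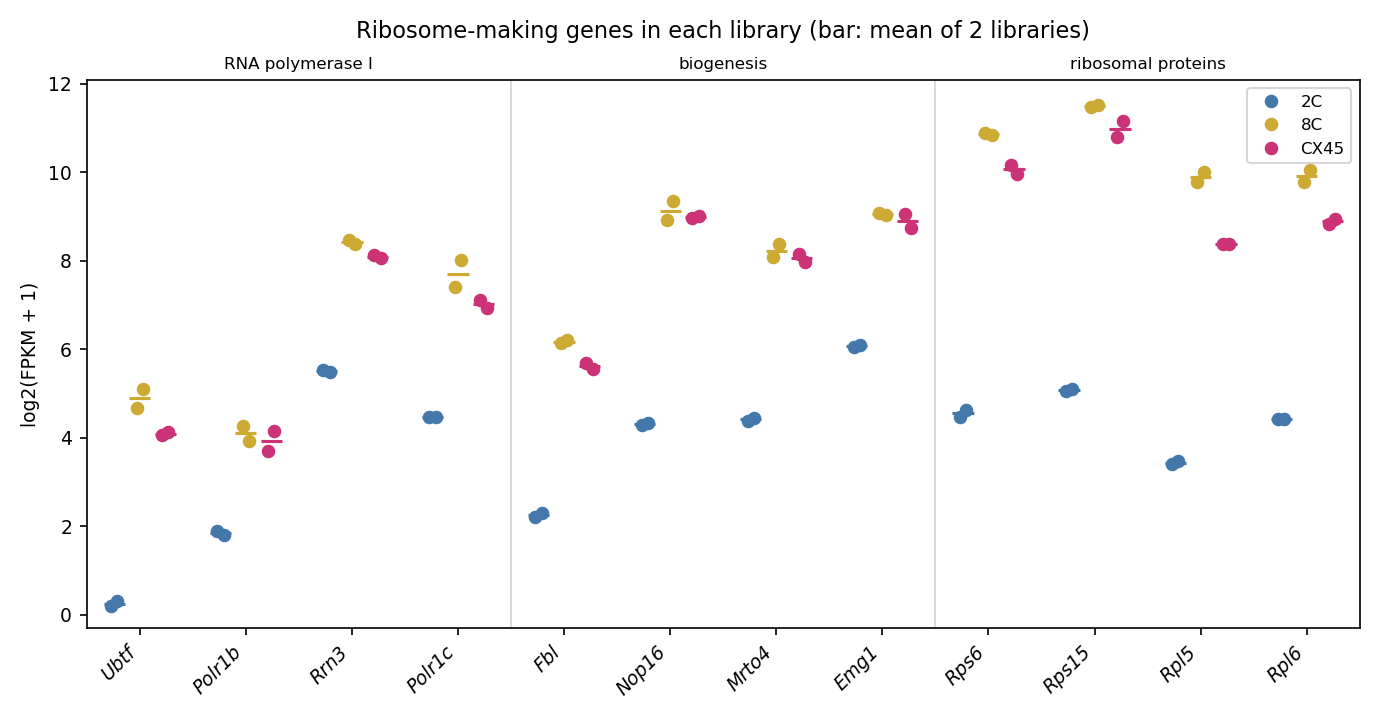
Levels in log2(FPKM + 1) of 12 genes for RNA polymerase I, ribosome biogenesis and ribosomal proteins, with 1 point for each library of 2C, 8C and CX45 and a bar at the mean of each pair. Every CX45 point lies above both 2C points, and for the 4 ribosomal protein genes below both 8C points.

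Genes of other parts of the translation, protein quality control and respiration machinery were also called higher. In CX45 against 2C, calls were 36 higher and 1 lower among 78 mitochondrial ribosomal protein genes, 20 higher and none lower among 40 translation initiation factors, 21 higher and none lower among 36 proteasome subunits, 38 higher and none lower among 76 respiratory chain and ATP synthase genes, and 7 higher among 8 TRiC chaperonin subunits. The same lists had 45, 27, 26, 39 and 7 genes higher in 8C, where 16.4% of all genes rose. The proteasome alpha subunit Psma3 stood at 44.5 and 42.6 FPKM in 2C, 519.7 and 469 in CX45 and 524 and 499.7 in 8C. The complex I subunit Ndufa8 stood at 0.419 and 0.881 in 2C, 103 and 101 in CX45 and 164 and 127 in 8C. The TRiC subunit Cct4, which folds actin and tubulin, stood at 14.3 and 14.1 in 2C, 249.8 and 281 in CX45 and 330.1 and 417 in 8C. All 3 were far above 2C in both CX45 libraries, at or below the 8C values.

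Shares of rises were smaller for the other polymerases and for synthetases, and only that of the synthetases was near the share of all genes. Of 13 RNA polymerase II subunits 5 rose in CX45 (38.5%), of 21 RNA polymerase III genes 6 rose (28.6%), and none fell. Of 19 aminoacyl-tRNA synthetases 3 rose (15.8%, close to the 16.3% of all genes), and none fell. Among 38 spliceosome core genes 16 rose (42.1%) and 1 fell. In 8C the rises of these lists numbered 5, 6, 5 and 14. The U2 component Sf3b1 stood at 34.9 and 35.4 FPKM in 2C, 164 and 155 in CX45 and 142 and 159 in 8C. Several of these counts changed with the library left out, also for 8C and CX22 libraries, which are not part of CX45 against 2C. The fits without an 8C, CX22 or CX45 library had fewer residual degrees of freedom. The proteasome calls dropped from 21 to 10 without either 8C library, 9 without CX45 replicate 1 and 8 without CX45 replicate 2, and the respiratory chain calls from 38 to 18, 18, 12 and 17. Mitochondrial ribosomal protein rises numbered 19 without either 8C library and 22 without either CX45 library, and initiation factor rises 13 and 12. Spliceosome rises numbered 6 without either 8C library, 5 without CX45 replicate 1 and 8 without CX45 replicate 2, and TRiC rises 3 without CX45 replicate 1. RNA polymerase II rises numbered 3 without either 8C library or CX45 replicate 2 and 2 without CX45 replicate 1, and 8 without either CX22 library. RNA polymerase III rises numbered 1 without either 8C library, 2 and 3 without CX45 replicate 1 and 2. Synthetase rises numbered 1 without either 8C library or CX45 replicate 1 and 12 without either CX22 library.

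Some of the largest rises were in genes listed at 0 in both 2C libraries, and others were in genes with low 2C values. Rbis, a ribosome biogenesis gene, was listed at 0 in both 2C libraries and stood at 916 and 657 FPKM in CX45 and 678 and 432 in 8C. Ak6, a nucleolar adenylate kinase, was listed at 0 in 2C and stood at 489.5 and 619.9 in CX45 and 660.3 and 681 in 8C. Snapc3, a subunit of the small nuclear RNA activating complex, was listed at 0 in 2C and stood at 150.1 and 151 in CX45, above its 50.9 and 66.2 in 8C. Such entries can be failed estimates, and 402 of the 1924 rises had both 2C libraries at 0. The mitochondrial ribosomal protein gene Mrpl20 had 0.0736 and 0.0689 FPKM in 2C, 298 and 249.6 in CX45 and 396 and 362 in 8C.

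**Figure D3:**
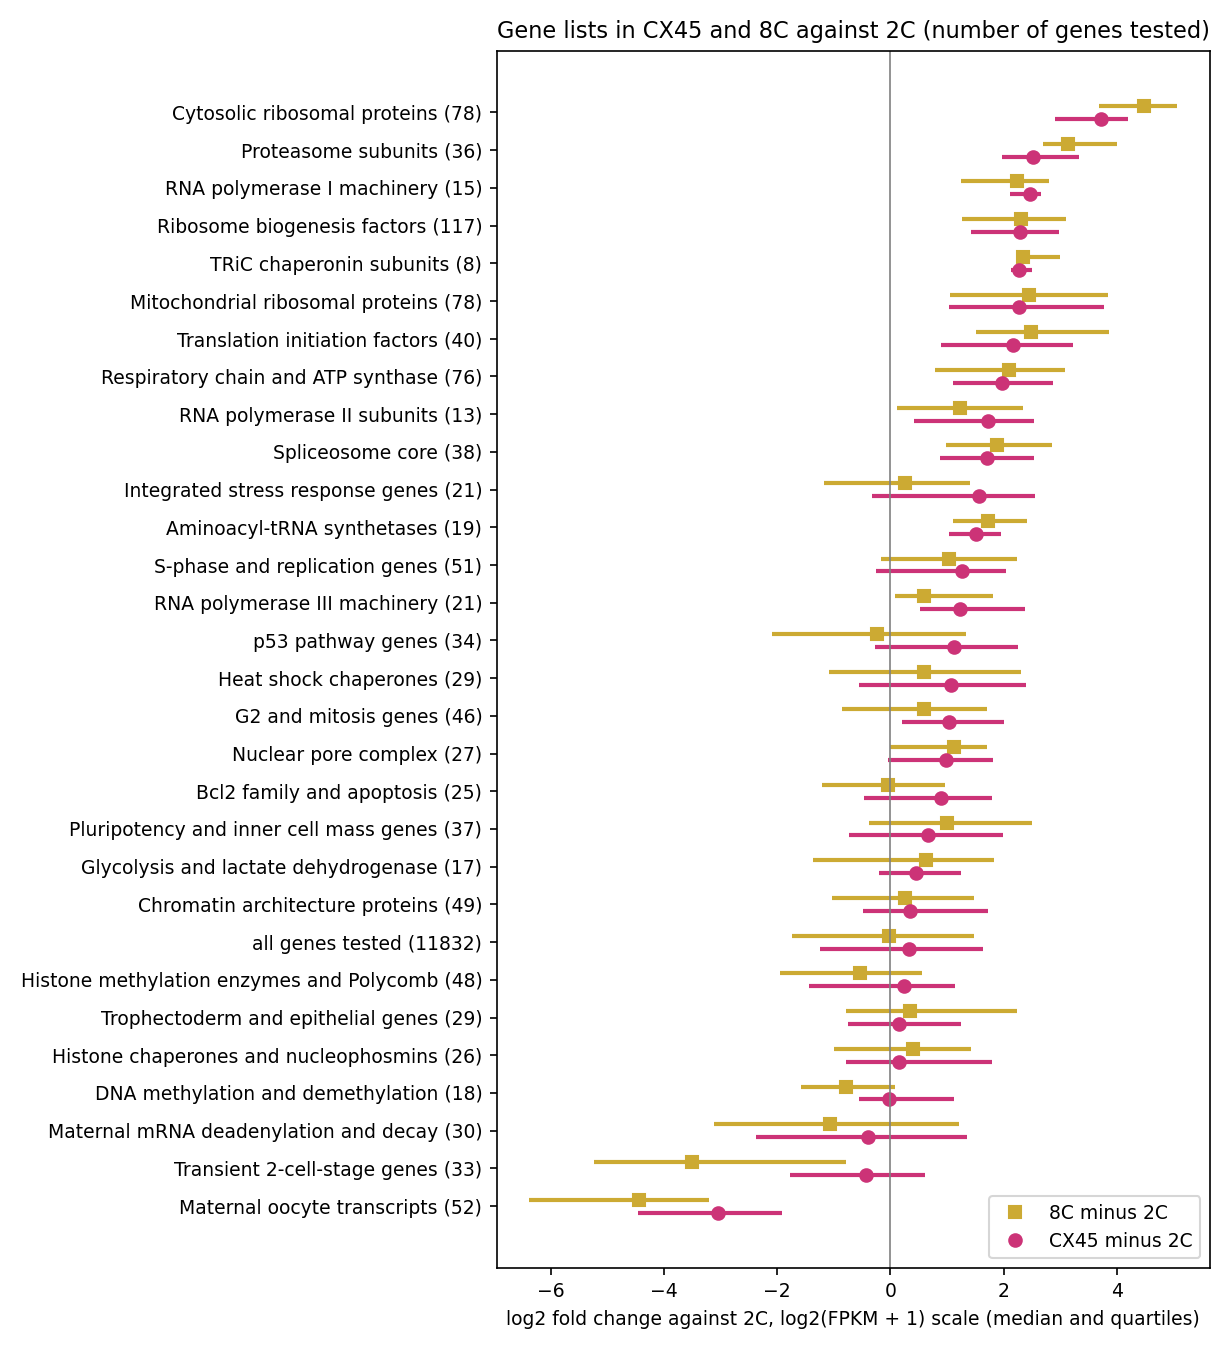
Median log2 difference from 2C of 29 gene lists and of all genes tested, in CX45 (circles) and 8C (squares), with lines from the lower to the upper quartile of the genes. Ribosomal proteins lie at 3.72 in CX45 and 4.48 in 8C, and transient 2-cell-stage genes at -0.43 and -3.50.

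Rises among lineage genes were about as frequent in CX45 as among all genes tested: 18.9% of pluripotency and 13.8% of trophectoderm genes, against 16.3%. Of 37 pluripotency and inner cell mass genes 12 rose in 8C and 6 of those rose in CX45, where 7 rose and 2 fell in all, and the median difference was 0.67 in CX45 and 1.00 in 8C. Dppa4, a chromatin-associated factor of early embryos, stood at 47.8 and 48.2 FPKM in 2C, 615 and 717 in CX45 and 596 and 722 in 8C, and its partner Dppa2 at 14.7 and 16.1 in 2C, 266 and 458 in CX45 and 635 and 831 in 8C. Nanog, a core factor of the pluripotent epiblast, rose from 0.0834 and 0.176 FPKM in 2C to 6.53 and 4.54 in CX45, a log2 difference of 2.52 ± 0.47, adjusted p = 0.0218. It stood at 20.3 and 18.2 in 8C, with no overlap, and its difference from 8C was -1.65 ± 0.38, adjusted p = 0.122. Pou5f1, which encodes Oct4, stood at 0.252 and 0 FPKM in 2C, 0 and 2.16 in CX45 and 7.78 and 16.2 in 8C, and was called in neither comparison (adjusted p = 0.664 and 0.0668).

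The growth factor gene Fgf4 was listed at 0 in both 2C libraries and stood at 34.9 and 29.8 FPKM in CX45, above 2.68 and 7.8 in 8C, with adjusted p = 0.106 against 8C. The receptor gene Fgfr2 stood at 0.978 and 0.964 FPKM in 2C, 2.83 and 2.38 in CX45 and 7.58 and 11.4 in 8C, and was called in 8C but not in CX45 (adjusted p = 0.306). Upp1, uridine phosphorylase, was one of the 7 rises and was no stage gain: it stood at 0.398 and 0.372 FPKM in 2C, 11.9 and 13.8 in CX45 and 0 and 0.0785 in 8C. Sox2 was low in every group, at 4.55 and 3.95 FPKM in 2C, 0.442 and 0 in CX45 and 0 and 0.02 in 8C, and fell in both comparisons. Fgfr2 and Upp1 were chosen after their values were seen. The 7 rises numbered 3 without either 8C library and 3 without CX45 replicate 1, and the 2 falls 1 without either 8C library.

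Among trophectoderm and epithelial genes, the outer-cell programme of the embryo, 8 of 29 rose in 8C and 4 of those rose in CX45, with 1 fall, and the list median was 0.16 in CX45 and 0.34 in 8C. The sign of the CX45 median changed with a pseudocount of 0.1 (-0.08) and without CX45 replicate 1 (-0.34). The 4 were Tead4, F11r, Hand1 and Wwtr1. Tead4, the transcription factor of trophectoderm specification, was listed at 0 in 2C and stood at 14.5 and 17.7 FPKM in CX45 and 20.04 and 24.1 in 8C. Its coactivator Yap1 fell by 2.34 ± 0.41 in CX45, from 87.6 and 86.4 FPKM to 12.2 and 21.8, beside 10.1 and 10.4 in 8C. The tight junction gene Cldn4 stood at 0 and 0.129 FPKM in 2C, 1.95 and 1.13 in CX45 and 15.4 and 36.0 in 8C, and the keratin gene Krt8 at 0.323 and 0.474, 1.46 and 0, and 5.77 and 6.45. Both were called in 8C, and in CX45 neither was (adjusted p = 0.217 and 0.859). Cldn4 and Krt8 were chosen after their values were seen. Cdx2 was listed at 0 in every library. The 4 rises numbered 1 without either 8C library, 1 without CX45 replicate 1 and 2 without CX45 replicate 2, and the fall was not called without either 8C library.

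Stage gains called lower in CX45 than in 8C were mostly genes listed at 0. They were a small part of the gains not called in CX45. Of the 1938 stage gains 496 were not called against 2C, and 21 of those were called below 8C. Of the 24 genes called lower in CX45 than in 8C, 22 were stage gains, 19 of those 22 were listed at 0 in both CX45 libraries and 17 in both 2C libraries as well. Mettl5, which encodes an enzyme that modifies 18S ribosomal RNA, stood at 88.5 and 94.2 FPKM in 8C, Exosc9, a subunit of the RNA exosome, at 52.6 and 40.5, and the phospholipid gene Chpt1 at 40.2 and 26.8. All 3 were listed at 0 in all 4 libraries of 2C and CX45. The initiation factor gene Eif3j1 stood at 14.6 and 12.6 in 8C and at 0 in those 4 libraries. Among the larger gains of 8C that were not called in CX45, the surface antigen gene Ly6a stood at 0 and 0.407 FPKM in 2C, 2.37 and 15.5 in CX45 and 168 and 152 in 8C, and Isyna1, the enzyme of inositol synthesis, at 0.0453 and 0.889, 28.6 and 40.8, and 125 and 312. For Isyna1 both CX45 values were well above 2C and below 8C, and a missed call (adjusted p = 0.106) does not show that it did not rise. Klhl10 stood at 0 in both 2C libraries, 72.6 and 28.1 FPKM in CX45 and 150 and 159 in 8C. Mtx2 stood at 0 in 2C, 103.7 and 63.5 in CX45 and 95.35 and 88.8 in 8C. Ccdc124 stood at 5.3 and 5.21 in 2C, 178 and 346 in CX45 and 588 and 769 in 8C. These genes also narrowly missed a call in CX45 (limma adjusted p = 0.0553, 0.0534 and 0.0512).

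Many maternal oocyte transcripts fell in CX45, and the median level of the list was above that of 8C. Of 52 tested, 31 fell and 1 rose in CX45, with a median log2 difference of -3.04, and 39 fell and 1 rose in 8C, with a median of -4.44. All 31 genes that fell in CX45 were stage losses. The median level over the list was 77.2 FPKM in 2C, 10.2 in CX45 and 2.05 in 8C. Oosp1, an oocyte-secreted protein gene, stood at 1693 and 1700.0 FPKM in 2C, 62.9 and 89.0 in CX45 and 5.51 and 9.66 in 8C, and fell by 4.49 ± 0.44, adjusted p = 0.00593. Wee2, the oocyte kinase that restrains meiotic maturation, stood at 322 and 316 in 2C, 6.95 and 6.71 in CX45 and 0.0582 and 0.632 in 8C. Bmp15, an oocyte growth factor of the TGF-beta family, stood at 749.8 and 724 in 2C, 5.71 and 20.2 in CX45 and 0.808 and 2.72 in 8C. In these 3 genes all CX45 values lay between 2C and 8C without overlap.

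Against 8C, 2 of the 52 were called higher in CX45, Omt2a and Fbxw24. Omt2a, an abundant oocyte maturation transcript, stood at 30570 and 33190 FPKM in 2C, 579 and 808 in CX45 and 50.7 and 45.6 in 8C, a difference from 8C of 3.80 ± 0.26, adjusted p = 0.0462. Its near-identical neighbour Omt2b had 83520 FPKM in one 2C library and 0 in the other, so how reads were divided between both genes is uncertain. Fbxw24, an F-box gene named because 2 genes made up that count, stood at 631 and 619.6 in 2C, 84.1 and 118 in CX45 and 14.3 and 19.0 in 8C. Dppa3, which encodes Stella, is named here with its values known and was not called and stood between 18480 and 26940 FPKM in all 6 libraries. The 31 falls numbered 19 without either 8C library and 16 without CX45 replicate 1.

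Few of the stage losses among genes of the transient 2-cell programme were called in CX45. Of 33 tested, 16 fell in 8C (48.5%, beside 20.7% of all genes) with a median of -3.50. Only 4 of those 16 fell in CX45, beside 62.9% of all stage losses, with a median over the 33 of -0.43. The 4 falls were 12.1% of the 33, close to the 13.6% of all genes tested. Those 4 were Obox1, Obox2, Obox5 and Arg2, and 2 genes rose, Obox6 and Pramel7. Many of these genes have near-identical copies, among which reads may have been divided, and the list median of CX45 became 0.79 without CX45 replicate 1. Obox5, a homeobox gene, stood at 2731 and 2755 FPKM in 2C, 57.1 and 80.8 in CX45 and 4.1 and 18.3 in 8C, and fell by 5.32 ± 0.85, adjusted p = 0.0152. Obox6 stood at 41.2 and 41.1 in 2C, 705 and 1815 in CX45 and 1683 and 1824 in 8C. Members of 1 homeobox family therefore moved in both directions, each in the direction of 8C.

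Zscan4d, a telomere-associated marker of 2-cell-like states whose promoter is printed above, stood at 71.1 and 63.6 FPKM in 2C, 11.8 and 26.6 in CX45 and 0 and 0.817 in 8C. Its difference from 2C was -1.86 ± 0.66, adjusted p = 0.0948, and from 8C 3.80 ± 0.54, adjusted p = 0.0639. Zfp352, a zinc finger gene of the same programme, stood at 126 FPKM in both 2C libraries, 20.9 and 179 in CX45 and 1.86 and 0.916 in 8C. The 2 CX45 libraries lay on either side of 2C and both far above 8C. Tcstv1 showed 114 and 116 FPKM in 2C, 18.3 and 289 in CX45 and 1.03 and 0.0569 in 8C, and Gm5662 showed 173 and 171, 39.8 and 483, and 0.821 and 1.42. Gm8300 stood at 59.7 and 60.6 in 2C, 30.1 and 170.0 in CX45 and 0.628 and 0.632 in 8C.

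The CX45 libraries differed across these genes. Replicate 2 was higher than replicate 1 for 24 of the 33 genes, with a median log2 difference of 1.36, against 0.04 over all 11832 genes and 0.03 between the 8C libraries over the same 33. For maternal oocyte transcripts replicate 2 was higher for 40 of 52 genes, with a median of 0.48. Pramel16 was among the genes with closer libraries, at 37.4 and 35.9 FPKM in 2C, 30.2 and 64.1 in CX45 and 0.538 and 0.237 in 8C. Its difference from 8C was 5.03 ± 0.75, adjusted p = 0.068. None of the 33 genes was called between CX45 and 8C by limma. The 2 rises numbered 0 without either 8C library or CX45 replicate 2, and the 4 falls 2 without CX45 replicate 1. Tcstv1, Gm5662, Gm8300 and Pramel16 were chosen after their values were seen.

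**Figure D4:**
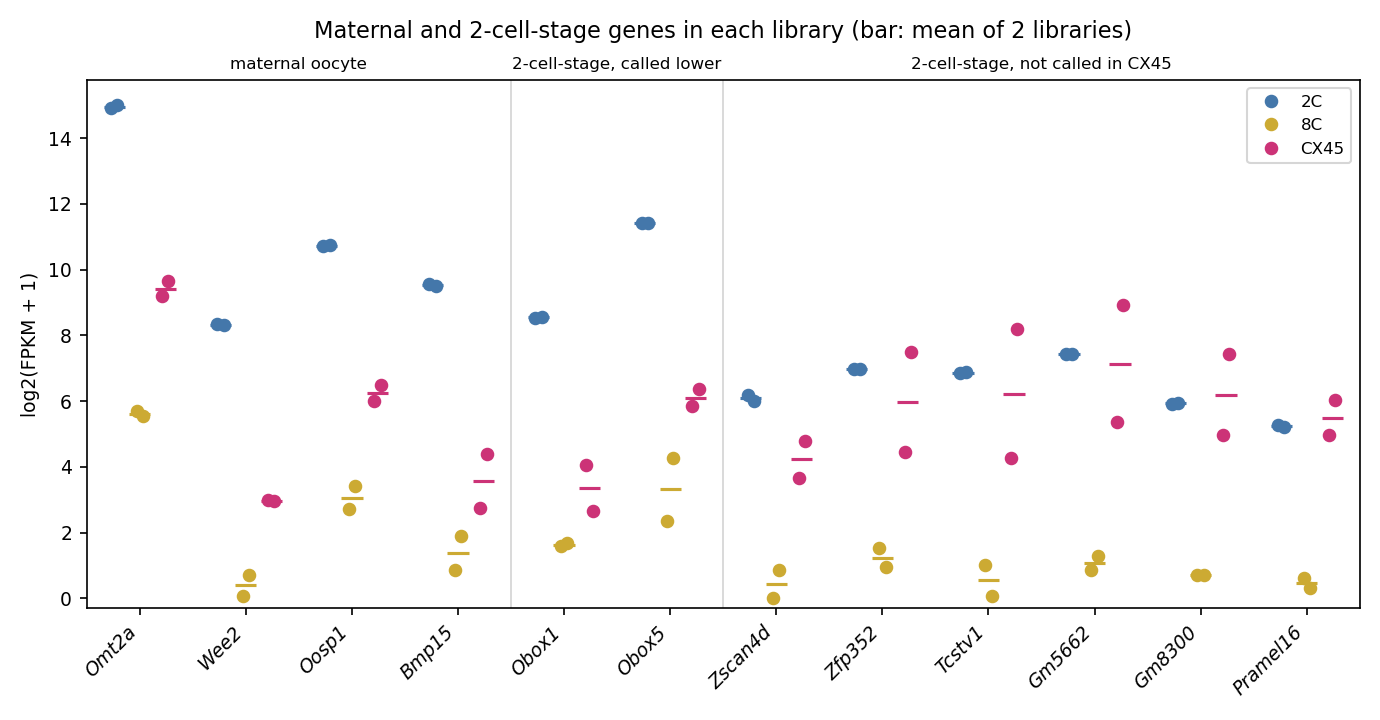
Levels in log2(FPKM + 1) of 4 maternal oocyte genes and 8 transient 2-cell-stage genes, with 1 point for each library of 2C, 8C and CX45 and a bar at the mean of each pair. The maternal and Obox points of CX45 lie between 2C and 8C, and all CX45 points of the last 6 genes lie above both 8C points. Both CX45 points of Zscan4d lie below 2C, and for the last 5 genes 1 CX45 point lies below and 1 above the 2C points.

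Stage losses that stopped short of 8C outside these lists had their own range of functions. Of the 54 genes called higher in CX45 than in 8C, 37 were stage losses, of which 24 had also fallen in CX45 and 12 were not called against 2C. Bmi1, a subunit of Polycomb repressive complex 1, stood at 594 and 577 FPKM in 2C, 59.6 and 78.8 in CX45 and 8.25 and 11.4 in 8C, a difference from 8C of 2.70 ± 0.26, adjusted p = 0.0466. Pnrc1, a nuclear receptor coactivator gene, stood at 226 and 220.2 in 2C, 18.9 and 17.8 in CX45 and 0 and 0.0512 in 8C. In both genes CX45 stood between the stages. Of the 2444 stage losses 906 were not called against 2C, and some of them had low values in CX45. E2f5 stood at 625 and 622 FPKM in 2C, 30.2 and 26.6 in CX45 and 0 and 16.6 in 8C. Tcl1b3 stood at 767 and 694 in 2C, 1.86 and 38 in CX45 and 0 and 3.33 in 8C. For Rfpl4b the CX45 libraries disagreed, at 9.3 and 151, beside 149.5 and 144 in 2C.

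Other stage losses were not called against 2C and were called above 8C. Setdb1, a histone H3 lysine 9 methyltransferase, stood at 8.46 and 7.75 FPKM in 2C and 10.1 and 16.1 in CX45, while each 8C library had it at 0. Ube3a, a ubiquitin ligase gene, stood at 15.0 and 15.4 in 2C and 17.5 and 11.2 in CX45, and both 8C libraries had it at 0. Nat8f2 stood at 23.6 and 24.9 in 2C, 27.5 and 33.1 in CX45 and 0.921 and 0.857 in 8C. Values of CX45 overlapped or adjoined 2C in these 3 genes. Spc25, a kinetochore subunit chosen after its values were seen, stood at 347 and 332 in 2C, 803 and 848 in CX45 and 65.7 and 107 in 8C, above 2C in both libraries without a call (adjusted p = 0.0636). Sycp3, a synaptonemal complex gene chosen the same way, stood at 437 and 395 in 2C, 578 and 535 in CX45 and 59.4 and 42.1 in 8C.

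Genes of the p53 pathway changed in both directions in CX45, and 5 of their 9 rises were not stage gains. Of 34 tested, 9 rose (26.5%) and 4 fell (11.8%) in CX45, beside 16.3% and 13.6% of all genes tested. In 8C 5 rose (14.7%) and 8 fell (23.5%), beside 16.4% and 20.7% of all genes. Of these shares, that of rises in CX45 lay furthest from the share of all genes, a difference that was not tested. S-phase genes (25.5%) and mitosis genes (26.1%) had similar shares of rises in CX45. The median log2 difference from 2C was 1.13 in CX45 and -0.24 in 8C. Mdm2, the ubiquitin ligase that p53 induces and that limits p53, stood at 23.9 and 25.1 FPKM in 2C, 123 and 88.5 in CX45 and 9.18 and 12.2 in 8C. It rose by 2.05 ± 0.35 against 2C, adjusted p = 0.0174, and was higher by 3.19 ± 0.28 than in 8C, adjusted p = 0.0462. Both CX45 libraries were above all libraries of either stage. Cdkn1a, the cell cycle inhibitor p21, stood at 12.1 and 11.7 in 2C, 118 and 159.9 in CX45 and 68.3 and 77.4 in 8C, a rise of 3.43 ± 0.40 against 2C, adjusted p = 0.00807, and was not called against 8C (adjusted p = 0.232). Trp53inp1, a p53-induced nuclear protein gene, stood at 60.6 and 60.7 in 2C, 71.8 and 78.9 in CX45 and 6.78 and 3.38 in 8C, and its level in CX45 was called higher than in 8C.

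Eda2r, a death receptor gene of the p53 pathway, stood at 0 and 0.036 FPKM in 2C, 19.7 and 23.6 in CX45 and 0.787 and 5.57 in 8C, and Phlda3, an inhibitor of AKT, was listed at 0 in 2C and stood at 5.01 and 13.3 in CX45 and 2.59 and 2.65 in 8C. Both rose against 2C. Mdm4, the partner of MDM2, fell by 2.80 ± 0.33, adjusted p = 0.00817, from 710.3 and 716 FPKM to 88.9 and 117, beside 19.0 and 22.9 in 8C. Fas fell from 5.82 and 6.08 in 2C to a listed 0 in all libraries of CX45 and 8C. Btg2, an antiproliferative p53 target outside the naming rule and chosen after its values were seen, stood at 5.21 and 5.66 in 2C, 12.0 and 21.4 in CX45 and 0.0726 and 0.448 in 8C, with no call in CX45. Trp53inp1, Eda2r and Phlda3 were chosen the same way. The 9 rises numbered 2 without either 8C library and 3 without either CX45 library, and the 4 falls 2 without either 8C library.

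**Figure D5:**
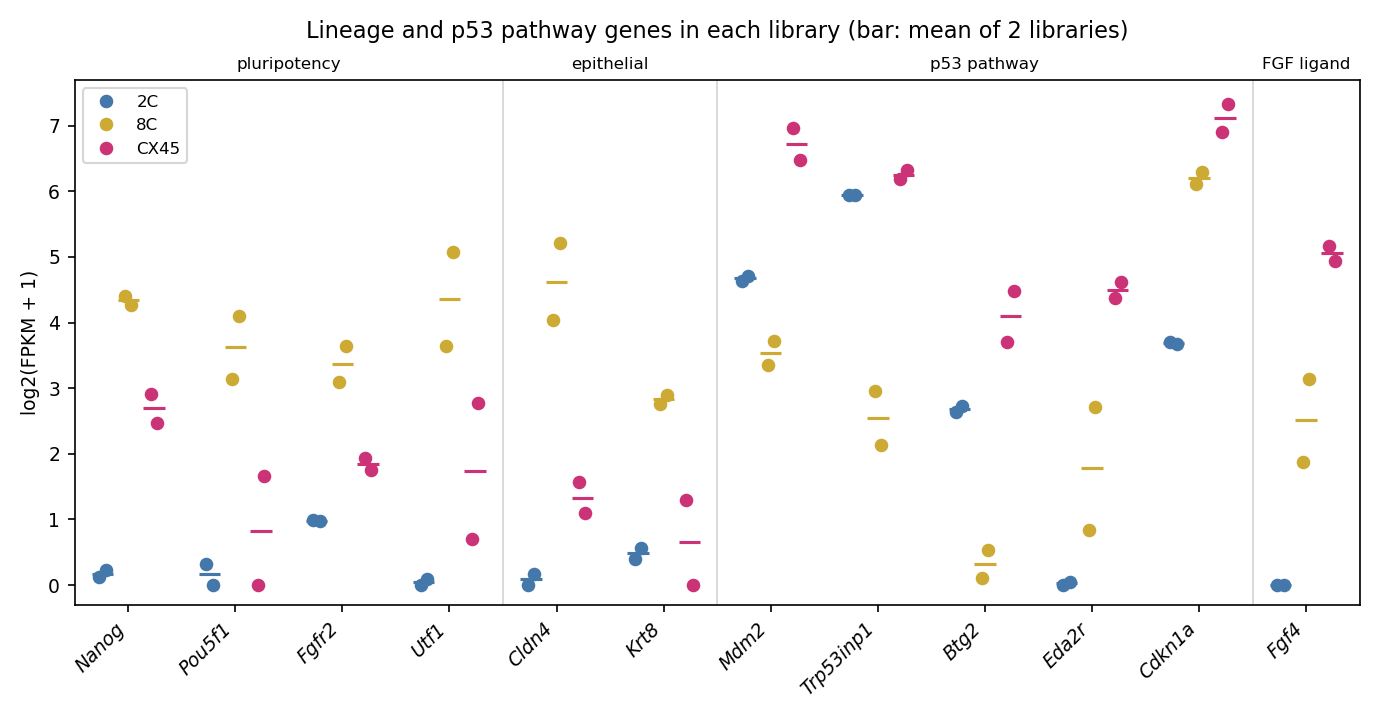
Levels in log2(FPKM + 1) of lineage genes, p53 pathway genes and Fgf4, with 1 point for each library of 2C, 8C and CX45 and a bar at the mean of each pair. The 6 lineage genes shown lie lower in CX45 than in 8C, and Mdm2, Trp53inp1, Btg2, Eda2r, Cdkn1a and Fgf4 lie higher. The lineage genes shown do not stand for their lists. Fgf4 is itself a member of the pluripotency list. Of members not shown, Dppa4 and Hand1 had higher means in CX45 than in 8C, and Dppa2 a lower one. The median log2 difference of CX45 from 8C was -0.40 over the pluripotency list and -0.21 over the trophectoderm list.

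In all, 17 genes were called above both stages and 2 below both. Besides Mdm2, the most abundant of the 17 were Cd164, a sialomucin, at 78.7 and 75.7 FPKM in 2C, 69.8 and 73.1 in 8C and 262 and 244 in CX45, and Rilpl2, a lysosomal adaptor gene, at 11.8 and 11.1, 6.49 and 7.16, and 49.7 and 48.6. Both were chosen for their level after the values were seen. Several of the 17 were listed at 0 in both stages and were low in CX45, such as the Bcl2-family gene Bmf at 1.61 and 1.28 FPKM and the meiotic cohesin gene Rec8 at 1.28 and 1.11. The 2 below both stages were Acyp2, at 0.135 and 0.117 FPKM in CX45 against 3.22 and 3.71 in 2C and 4.09 and 4.41 in 8C, and Wdr83, listed at 0 in CX45.

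Stress genes showed both patterns. Of 21 integrated stress response genes 7 rose (33.3%) and 4 fell (19.0%) in CX45, with a median of 1.57 against 0.26 in 8C. Over all genes tested 16.3% rose and 13.6% fell in CX45. Eif4ebp1, an inhibitor of cap-dependent translation, stood at 2.38 FPKM in both 2C libraries, 206 and 311 in CX45 and 178 and 151 in 8C. Hspa5, the endoplasmic reticulum chaperone BiP, stood at 39.0 and 39.3 in 2C, 155 and 148 in CX45 and 43.2 and 43.6 in 8C, a rise of 1.93 ± 0.24 against 2C, adjusted p = 0.00938, with adjusted p = 0.0517 against 8C. Phgdh, of serine synthesis, stood at 0 and 0.208 in 2C, 9.79 and 14.9 in CX45 and 74.0 and 69.2 in 8C. Among 29 heat shock chaperones 11 rose (37.9%) and 3 fell (10.3%). Hspa8 stood at 17.2 and 19.1 in 2C, 469 and 592 in CX45 and 1239 and 1659 in 8C, between the stages in both libraries. The 7 stress response rises numbered 3 without either 8C library and 4 without either CX45 library, and the 11 chaperone rises 6 and 5. The 4 stress response falls numbered 1 without either 8C library and 2 without CX45 replicate 1, and the 3 chaperone falls 1 without either 8C library or CX45 replicate 1 and 0 without CX45 replicate 2.

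The title of the series refers to chromatin. Of 49 chromatin architecture genes 11 rose (22.4%) and 4 fell (8.2%) in CX45, against 10 and 6 in 8C. Of 48 histone methylation and Polycomb genes 5 rose (10.4%) and 7 fell (14.6%), against 4 and 13 in 8C. Over all genes 16.3% rose and 13.6% fell in CX45, so the shares of the methylation list were below and near those of all genes. Wapl, which releases cohesin, stood at 503 and 504 FPKM in 2C, 132 and 100.2 in CX45 and 61.3 and 40.1 in 8C, and fell by 2.12 ± 0.40, adjusted p = 0.0229. Hmgb1 stood at 39.7 and 47.2 in 2C, 221 and 198 in CX45 and 377 and 320.3 in 8C, a rise of 2.24 ± 0.27. Suz12, of Polycomb repressive complex 2, stood at 406 in both 2C libraries, 121 and 138 in CX45 and 72.3 and 69.4 in 8C. In each of these genes CX45 lay between the stages. The 11 rises of the architecture list numbered 2 without either 8C library and 3 without either CX45 library, and its 4 falls 0 without either 8C library and 1 without CX45 replicate 1. The 5 rises and 7 falls of the methylation list numbered 0 and 2 without either 8C library, 1 and 3 without CX45 replicate 1 and 1 and 4 without CX45 replicate 2, and its median of 0.24 became -0.27 without CX45 replicate 2.

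Replication and mitosis genes followed 8C in part. Of 51 S-phase genes 13 rose (25.5%) and 2 fell (3.9%) in CX45, against 16 and 7 in 8C. Of 46 G2 and mitosis genes 12 rose (26.1%) and 2 fell (4.3%), against 10 and 7. Over all genes tested 16.3% rose and 13.6% fell in CX45. Rpa2, a subunit of the single-strand binding complex, stood at 5.88 and 4.32 FPKM in 2C, 89.1 and 94.2 in CX45 and 112 and 130.0 in 8C. Ccnb1, cyclin B1, stood at 255 and 264 in 2C, 1098 and 1491 in CX45 and 1599 and 2030.0 in 8C. Both rose in CX45 and stood below 8C in both libraries. Plk4, the kinase of centriole duplication, fell by 2.87 ± 0.26, from 107 and 112 FPKM to 14.4 and 13.8, beside 6.66 and 7.32 in 8C. The 13 and 12 rises numbered 5 and 6 without either 8C library, 6 and 5 without CX45 replicate 1 and 4 and 3 without CX45 replicate 2. The 2 S-phase falls numbered 0 without either 8C library and 1 without CX45 replicate 1, and the 2 mitosis falls 1 without either 8C library or CX45 replicate 2.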

How the data were processed

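Gene expression was measured by Smart-seq in 8 libraries, 2 each of 2C, 8C, CX22 and CX45. The deposited values are FPKM per transcript entry, and the submitters' processing notes name HISAT2 4.8.2, Cufflinks 2.2.1 and build mm9. The annotation and the settings of these tools were not given in the sources used. FPKM was summed over the entries of each gene symbol. Genes with at least 1 FPKM in at least 2 libraries were fitted with limma 3.58.1 (R 4.3.3) on log2(FPKM + 1), a scale that understates changes of low genes, with a trend on mean expression, all 4 groups and Benjamini-Hochberg adjustment over all genes tested, two-sided. The 2C libraries (median chi-square 1.18 times that of sampling noise, 8.4% of genes beyond the 95% point) were averaged to 1 sample, which is assumed to vary like the others. FPKM keeps no exact counts: low values gave depths at which 64.8% to 73.8% of checked values were within 0.05 of whole fragments, so no count test was run. The fit was run on simulated data with noise set from the 8C libraries alone. The libraries of CX22 and of CX45 differed more than those of 8C, so that run does not show how the fit behaves on them.

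Members and gene lists were chosen with earlier results of these data known, and 3 symbols of the RNA polymerase I list were replaced by older symbols once the table was seen. The naming rule took the 10 largest rises and falls, then in each list up to 4 members of smallest p. It further took the 8 lowest and 8 highest against 8C, the 6 largest stage gains and losses not called in CX45, and a fixed set. The first, the third and the fourth of these classes required 10 FPKM and a symbol that is not a predicted name. Only some genes of these classes are given in the text, and no rule fixed which. Alternatives covered the 2C libraries, replicate block, pseudocount, filter, scaling, samples, entries, trend and each library left out. CX22 entered the fit only.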

Additional observations from a re-analysis of the deposited data

How the results depend on the processing

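The replicate numbers did not pair the samples: deviations of same-numbered libraries correlated between -0.001 and 0.108 across pairs of groups. With the replicate number as a block over 8 libraries, 6019 genes were called in CX45 against 2C, 6614 in 8C against 2C and 707 in CX45 against 8C, with 2492 stage gains and 2541 stage losses also called in CX45. With the 2C libraries as separate samples these numbered 6085, 6679, 1037, 2520 and 2569. Leaving out each library in turn gave 1491 to 4919 calls for CX45 against 2C, 1411 to 5606 for 8C against 2C, 0 to 78 for CX45 against 8C, 450 to 2078 shared gains and 604 to 2080 shared losses.

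The 78 calls of CX45 against 8C became 183 with a pseudocount of 0.1, 20 with upper quartile scaling (8 higher, against 69.2% higher as reported), 12 with the highest entry of a gene and 2 with no trend. By limma they became 0 with no filter (2691 at an unadjusted p under 0.05), with quantile normalization (1808) and with CX22 left out (3178). The cause was not tested. Among the genes of the naming rule 143 were called in CX45 against 2C, and 97 of them kept their call in every setting. Signs turned for Rmi1 (0.01, highest entry) and Nat8f2 (-0.03, quantile normalization), and for 4 genes with the CX45 library left out: without replicate 1 and without replicate 2, the difference was -0.40 and 0.19 for Ube3a, 1.49 and -0.17 for Pou5f1, 0.04 and -3.84 for Rfpl4b, and 0.50 and -2.53 for Zfp352. The median of histone chaperones went from 0.15 to -0.28 with quantile normalization and -0.03 with upper quartile scaling. With 1 or 2 samples a group, a missed call does not show that a gene was unchanged.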
